A study of Mus musculus with 12 samples.

Results

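TGF-β receptors and SMADs were followed across CD4 single positive (SP) thymocyte development in 10 genes: the ligand Tgfb1, the receptors Tgfbr1, Tgfbr2 and Tgfbr3, the signalling SMADs Smad2, Smad3 and Smad4, the inhibitory SMAD Smad7, and the co-repressors Ski and Skil. The members were all probe sets that the annotation of the Mouse Genome 430 2.0 array gives to 1 of these symbols alone, which were 24 of the 45037 probe sets in the table and 10 of its 18193 genes. The 10 genes were chosen with earlier results of these data known, and the annotation alone gave their probe sets. Each gene was then read by the one of its probe sets with the highest mean over all arrays.

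The study compared 4 subsets of CD4 SP thymocytes that it treats as successive stages of maturation in the thymus. They were sorted from C57BL/6 mice 6 to 8 weeks old with no treatment. SP1 cells were Qa-2-6C10+CD69+, SP2 cells Qa-2-6C10-CD69+, SP3 cells Qa-2-6C10-CD69- and SP4 cells Qa-2+6C10-CD69-, with 3 arrays for each subset and 12 in all. All 4 gates shared the CD4+CD8- phenotype and left out CD25+ and NK1.1+ cells. Thymi were pooled before each sort, and the sort for the arrays left in mature conventional T cells that return to the thymus from the periphery, which carry Qa-2 and so can enter the SP4 gate. The labels call the 3 arrays of a subset biological replicates. The p-values without regard to replicate number measure the spread between these pooled preparations, not between mice. Where the replicate number is in the fit, differences shared by the arrays of a number are taken out of that spread.

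TGF-β1 is a secreted dimer that binds the type II receptor TGFBR2, which then phosphorylates the type I receptor TGFBR1. The activated receptor phosphorylates SMAD2 and SMAD3, and these join SMAD4 and enter the nucleus to regulate genes. SMAD7 blocks the receptor and is itself a target gene of the pathway, and SKI and SKIL hold SMAD complexes in a repressed state. In the thymus and in peripheral T cells the pathway is known for its part in regulatory T cell development, in NKT cell development and in restraining the activation of naive T cells.

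The members called between SP4 and SP1 in at least 1 fit were the type II receptor Tgfbr2 and the inhibitors Smad7 and Ski. All were higher in SP4. In SP4 against SP1, 1 of the 10 genes rose (Tgfbr2, 2.20-fold by the ratio of mean intensities) and 0 fell in the limma fit without regard to replicate number, beside 1.22% of all genes that rose and 0.297% that fell. When the replicate number was added to the fit as a block, so that arrays of the same number are compared with each other, 3 of the 10 rose (Tgfbr2, Smad7 and Ski) and 0 fell, beside 4.16% and 1.9% of all genes. The median log2 fold change of the 10 genes was 0.34 in SP4 against SP1 and that of all genes was -0.01. All 10 genes had a mean intensity of 100 or more, as did 7183 of the 18193 genes. The shares and the median of all genes include the dimmer ones, whose fold changes are understated. Shares among the brighter genes alone were not computed. No difference passed for Tgfb1, Tgfbr1, Smad2, Smad3 or Smad4 in any of the 6 comparisons between subsets, by either fit, nor for Tgfbr3 or Skil.

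**Figure D1:**
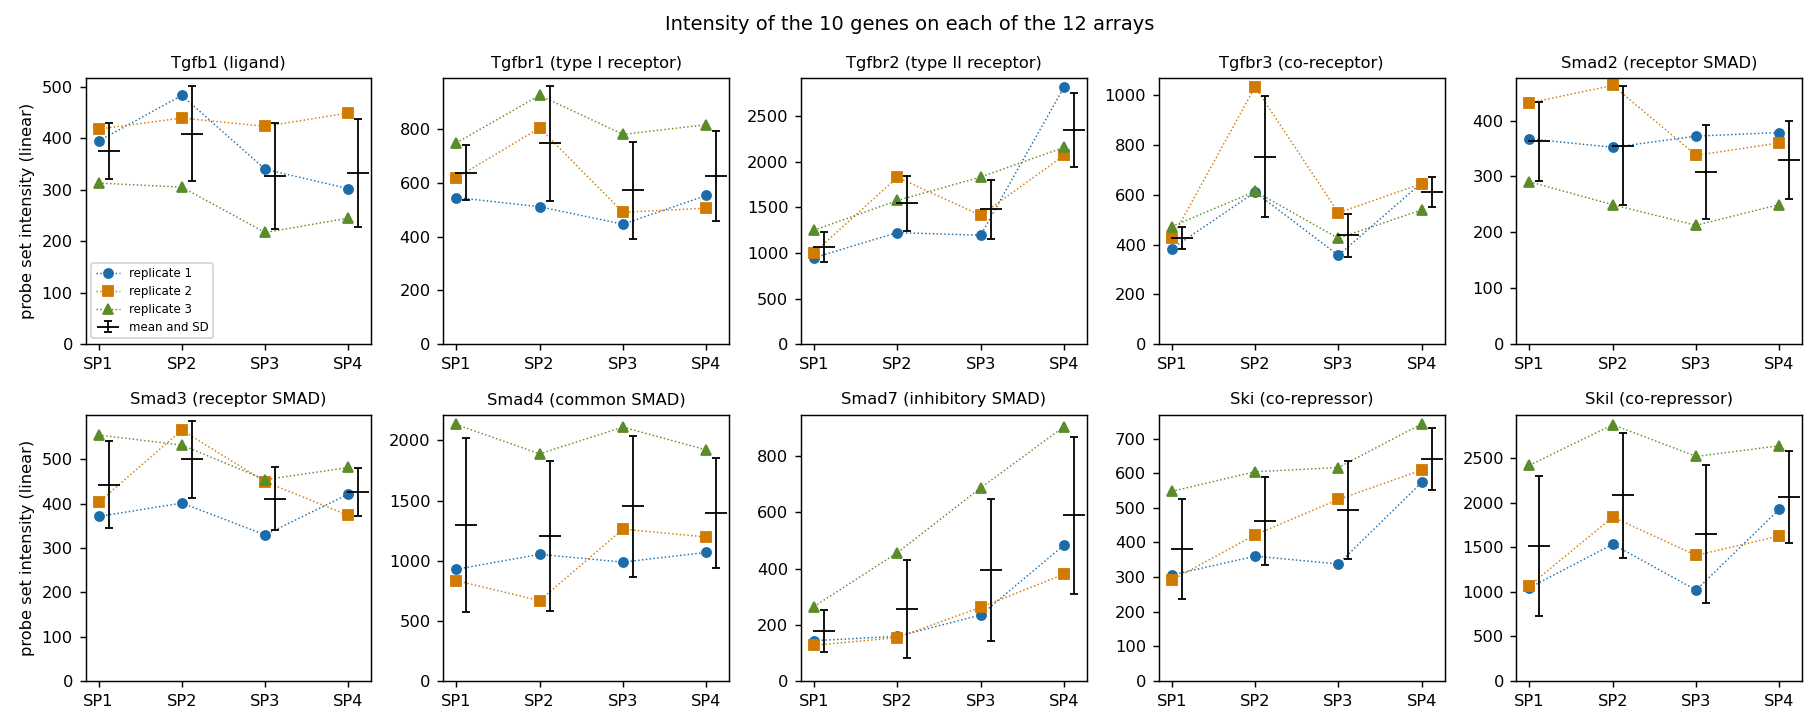
Linear intensity of each of the 10 genes (y axes, by its probe set of highest mean) in SP1, SP2, SP3 and SP4 (x axes). Points are single arrays, joined by replicate number, and black bars are the mean and SD of 3 arrays. Tgfbr2 lies between 2069 and 2818 on the SP4 arrays, above all SP1 arrays, and Smad7 is highest in SP4 within each replicate number.

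The 9 measured markers of CD4 SP thymocytes each had a mean intensity of 100 or more, and their sum was 15830–18722 in SP4 and 16854–20312 in SP1. A probe set shared between the genes of the Qa-2 antigens read 1923–2561 in SP4 and 180–549 in SP1, as sorted, whereas the Cd69 transcript did not follow the sort on CD69 protein (log2 fold change -0.02, SE 0.33, adjusted p = 1.00 in limma). Some markers of other cells were higher in SP4. Of 14 measured NKT and innate-like T cell markers, 7 rose in SP4 against SP1 and 12 with the block (summed intensity 3156–3847 in SP4 and 524–2152 in SP1), among them Zbtb16, the transcription factor of NKT cells. Of 10 measured markers of activated or memory T cells, 4 rose and 7 with the block (2249–2624 in SP4 and 790–1192 in SP1). Of 6 megakaryocyte and platelet markers, 0 rose and 1, the thrombin receptor gene F2r, with the block (764–989.6 in SP4 and 433–611 in SP1), and 4 had a mean under 50. Of 10 regulatory T cell markers, 1 rose and 4 with the block, 5 lay above and 5 below 0, and the summed ranges overlapped (3497–6298 in SP4 and 3649–6472 in SP1). Of 12 myeloid markers, 0 rose and 3 with the block (1679–2883 in SP4 and 824–1993 in SP1). Of 15 thymic epithelial and stromal markers, 0 rose and 1 with the block, 4 lay above and 11 below 0, and 13 had a mean under 50. The summed double positive thymocyte markers were 2529–5307 in SP4 and 2553–9372 in SP1, and 10 of 11 genes lay below 0. Those of B cells were 1573–4538 in SP4 and 1044–4761 in SP1. On neither of these lists did a gene rise or fall by either fit. The part of these cells in the results for SP4 and SP1 was not tested. In bulk samples fewer cells of a type and less RNA per cell cannot be told apart.

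Tgfbr2, the type II receptor that binds the ligand, was the member whose rise passed without the block. On its leading probe set, the one of highest mean (1426397_at), intensity was 948, 1002 and 1249.8 on the SP1 arrays, 1224, 1829.5 and 1576 on the SP2 arrays, 1195, 1413 and 1833 on the SP3 arrays, and 2818, 2069 and 2157 on the SP4 arrays, in the order of replicates 1, 2 and 3. Every SP4 array lay above every array of the other 3 subsets, while SP2 and SP3 overlapped. In SP4 against SP1, the intensity averaged 2348 ± 409 in SP4 and 1067 ± 161 in SP1 (SD, n = 3 each), and the log2 fold change was 1.12 (SE 0.21, limma adjusted p = 0.0282, and 0.00298 with the block). The ratios of SP4 to SP1 within replicates 1, 2 and 3 were 2.97, 2.06 and 1.73. The smaller differences did not pass: the log2 fold change was 0.52 in SP2 against SP1 (SE 0.21), -0.06 in SP3 against SP2 and 0.67 in SP4 against SP3 (adjusted p = 0.624, and 0.136 with the block). The call in SP4 against SP1 without the block was lost when 1 of 6 arrays was left out, with an adjusted p of 0.131 without SP1 replicate 1, 0.125 without SP1 replicate 2, 0.0533 without SP3 replicate 2, and 0.118, 0.0676 and 0.0626 when the SP4 array of replicate 1, 2 or 3 was dropped. With the block it held without replicate 1, 2 or 3 in turn (adjusted p between 0.00895 and 0.0368).

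The other probe sets of Tgfbr2 gave less. A further one (1425444_a_at) read 663, 260.2 and 106 in SP4 and 226, 179.8 and 67.1 in SP1, and its log2 fold change of 0.85 (SE 0.67) did not pass (limma adjusted p = 0.955, and 0.0569 with the block). Within each replicate number SP4 was above SP1 on this probe set too, but replicate 3 stood far below the others in all 4 subsets. The third (1422019_at) lay between 3.31 and 4.69 on all 12 arrays, close to the smallest values in the table.

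Promoter windows of 5 of the 10 genes were used, and they are shown for the 2 genes among them that rose with the block, Tgfbr2 and Ski. Each line is the 250 bases before the RefSeq start site in GRCm38.p6, on the strand of the gene, which for both is the minus strand, at chr9:116175364-116175613 for Tgfbr2 and chr4:155222536-155222785 for Ski. Capitals mark matches on either strand to CAGAC (the SMAD box), CCAAT (the CCAAT box) or GGGCGG (the GC box), none of which overlap here.
Tgfbr2: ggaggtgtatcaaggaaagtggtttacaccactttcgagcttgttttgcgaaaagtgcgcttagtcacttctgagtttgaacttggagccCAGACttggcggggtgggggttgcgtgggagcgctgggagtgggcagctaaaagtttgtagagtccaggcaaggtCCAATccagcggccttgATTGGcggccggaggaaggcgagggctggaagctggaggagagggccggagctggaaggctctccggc
Ski: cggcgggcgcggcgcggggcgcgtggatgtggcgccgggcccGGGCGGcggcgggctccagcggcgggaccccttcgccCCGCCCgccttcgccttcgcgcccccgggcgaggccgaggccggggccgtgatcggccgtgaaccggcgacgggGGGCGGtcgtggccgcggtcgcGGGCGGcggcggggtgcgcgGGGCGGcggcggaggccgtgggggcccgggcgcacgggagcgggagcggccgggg
The Tgfbr2 window held 1 SMAD box, beginning 160 bases before the start, and 2 CCAAT boxes, at 85 and 68 bases before it. The Ski window held 5 GC boxes and neither of the other motifs. Such matches are common: of 32851 promoter windows of this length, 42.2% held the SMAD box, 33.9% the CCAAT box and 32.7% the GC box. A match describes these letters and is not a binding site.

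Tgfbr1, the type I receptor that carries the signal inward, had no difference that passed. Its leading probe set (1420895_at) read 546, 618 and 749 in SP1, 512, 804 and 926 in SP2, 446, 491 and 781 in SP3, and 553, 506 and 817 in SP4. The 4 subsets overlapped. In SP4 against SP1 the log2 fold change was -0.05, with a 95% confidence interval of -0.66 to 0.57, so a change of the size seen for Tgfbr2 lies outside the interval in this fit.

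Tgfbr3, betaglycan, a co-receptor that presents the ligand to the type II receptor, had means that went up, down and up again, highest in SP2. The probe set 1433795_at read 383, 425 and 472 in SP1, 610.4, 1032 and 613 in SP2, 357, 528 and 425 in SP3, and 648, 644 and 539 in SP4. All SP2 arrays lay above all arrays of SP1 and SP3, and so did all SP4 arrays. In SP2 against SP1 the log2 fold change was 0.76 (SE 0.23, unadjusted p = 0.00601, limma adjusted p = 1.00, and 0.193 with the block), and in SP3 against SP2 it was -0.74 (SE 0.23, unadjusted p = 0.00703, adjusted p = 1.00, and 0.109 with the block). In SP4 against SP1 it was 0.50 (SE 0.23, adjusted p = 0.622, and 0.117 with the block). No single comparison passed, and the F test for any difference among the 4 subsets passed with the block (adjusted p = 0.0378) and not without it (adjusted p = 0.52). The call with the block was lost when replicate 1, 2 or 3 was left out (adjusted p between 0.119 and 0.295).

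No difference passed for the receptor-activated SMADs, which carry the signal from the receptor to the nucleus. Smad2, read by 1420634_a_at, was at 367, 432 and 291 in SP1, 352, 463 and 249 in SP2, 372, 338 and 213 in SP3, and 378, 359.9 and 249.8 in SP4. Smad3, read by 1454960_at, was at 371, 402 and 555 in SP1, 401, 566 and 532 in SP2, 329, 449 and 454 in SP3, and 421, 373 and 481 in SP4. For neither gene did any 2 subsets separate. The log2 fold change in SP4 against SP1 was -0.14 for Smad2 (95% confidence interval -0.74 to 0.47) and -0.04 for Smad3 (-0.51 to 0.42). A further probe set of Smad2 (1442062_at) read 66.7, 67.4 and 61.6 in SP4 and 81.2, 85.4 and 112 in SP1, without overlap, and its log2 fold change of -0.41 (SE 0.16) did not pass (limma adjusted p = 0.502, and 0.0769 with the block).

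Smad4, the partner shared by all receptor-activated SMADs, differed more between replicate numbers than between subsets. Its leading probe set (1422486_a_at) read 929, 835 and 2133 in SP1, 1053, 667 and 1889 in SP2, 988, 1262 and 2111 in SP3, and 1069, 1197 and 1922 in SP4. The array of replicate 3 was the highest of each subset, above all arrays of the other 2 numbers. The log2 fold change in SP4 against SP1 was 0.19, with a wide 95% confidence interval of -0.78 to 1.16. By a further probe set (1422485_at), on which replicate 3 did not stand out, it was 0.26 (-0.14 to 0.66).

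Smad7, the inhibitory SMAD, had the largest fold change of the 10 genes in SP4 against SP1. Its probe set 1423389_at read 143, 127 and 265 in SP1, 159, 154 and 457 in SP2, 235, 262 and 687 in SP3, and 483, 379.9 and 905 in SP4. The array of replicate 3 was the highest in each subset, and within each number SP4 was the highest and SP3 the next. In SP4 against SP1 the intensity averaged 589 ± 278 in SP4 and 178 ± 75.3 in SP1 (SD, n = 3 each), with no overlap, and the ratios within replicates 1, 2 and 3 were 3.37, 3.00 and 3.42. The log2 fold change of 1.61 (SE 0.50) did not pass without the block (limma adjusted p = 0.254) and rose with it (SE 0.15, adjusted p = 4.61e-05). With the block it passed without replicate 1, 2 or 3 in turn (adjusted p between 0.00072 and 0.00283), and on the arrays of replicates 1 and 2 alone it passed with no block (log2 fold change 1.56, adjusted p = 0.00247).

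Smad7 was also the member that passed in other comparisons. In SP4 against SP2, 0 of the 10 genes rose without the block (0.654% of all genes rose and 0.121% fell) and 1, Smad7, with it (2.45% and 0.978%), at a log2 fold change of 1.23 (limma adjusted p = 0.674 without the block and 0.000615 with it). In SP3 against SP1, 0 rose without the block (0.011% of all genes rose and 0% fell) and 1, again Smad7, with it (0.319% and 0.121%), at 0.98 (adjusted p = 1.00 without the block and 0.0148 with it). The call in SP3 against SP1 was lost without replicate 1, 2 or 3 (adjusted p between 0.0679 and 0.232 with the block), whereas the one in SP4 against SP2 held (between 0.00562 and 0.0164). The second probe set of Smad7 (1443771_x_at), whose suffix marks probes that may bind other transcripts, read 203, 142 and 199 in SP4 and 60.7, 42.0 and 84.9 in SP1, a log2 fold change of 1.35 (SE 0.31, adjusted p = 0.0751, and 0.000235 with the block).

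Ski, a co-repressor of SMAD complexes, rose in SP4 with the block. By 1429192_at it read 306, 291 and 548 in SP1, 360.4, 422 and 604 in SP2, 338, 524 and 616 in SP3, and 573, 609 and 742 in SP4. All SP4 arrays lay above all SP1 arrays, with ratios of 1.87, 2.09 and 1.36 within replicates 1, 2 and 3. The log2 fold change in SP4 against SP1 was 0.78 (SE 0.29, limma adjusted p = 0.442, and 0.00835 with the block). With the block the call was lost without replicate 1 (adjusted p = 0.108) and held without replicate 2 or 3 (0.0401 and 0.0472). The second probe set (1426373_at), on which the replicates lay closer together, read 549, 632 and 574 in SP4 and 252, 349 and 337 in SP1, a log2 fold change of 0.88 (SE 0.22, adjusted p = 0.107, and 0.00102 with the block).

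Skil, the related co-repressor SnoN, read 1046, 1069 and 2422 in SP1, 1534, 1839 and 2876 in SP2, 1019, 1409 and 2519.9 in SP3, and 1929, 1628 and 2639.7 in SP4 by 1452214_at. Replicate 3 was the highest array in every subset, and in each number SP2 lay above SP1 and SP3. The log2 fold change in SP4 against SP1 was 0.53 (SE 0.39) and did not pass (limma adjusted p = 0.937, and 0.0859 with the block). Its second probe set (1422054_a_at) put all SP4 arrays (95.7, 65.5 and 65.0) above all SP1 arrays (44.0, 53.2 and 50.7), with a log2 fold change of 0.47 (SE 0.18, adjusted p = 0.46, and 0.134 with the block).

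Tgfb1, the ligand, had its higher means in SP1 and SP2, and no difference passed. By 1420653_at it read 395, 418 and 313 in SP1, 483, 439 and 305 in SP2, 339.7, 423 and 217 in SP3, and 302, 449 and 245 in SP4, with overlap throughout. The log2 fold change in SP4 against SP1 was -0.20 (95% confidence interval -0.82 to 0.42). A further probe set (1445360_at) read 71.2, 89.8 and 99.3 in SP4 and 94.5, 96.6 and 163 in SP1, lower in SP4 within each replicate number. Its log2 fold change of -0.36 (SE 0.22) did not pass (limma adjusted p = 0.851, and 0.233 with the block).

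**Figure D2:**
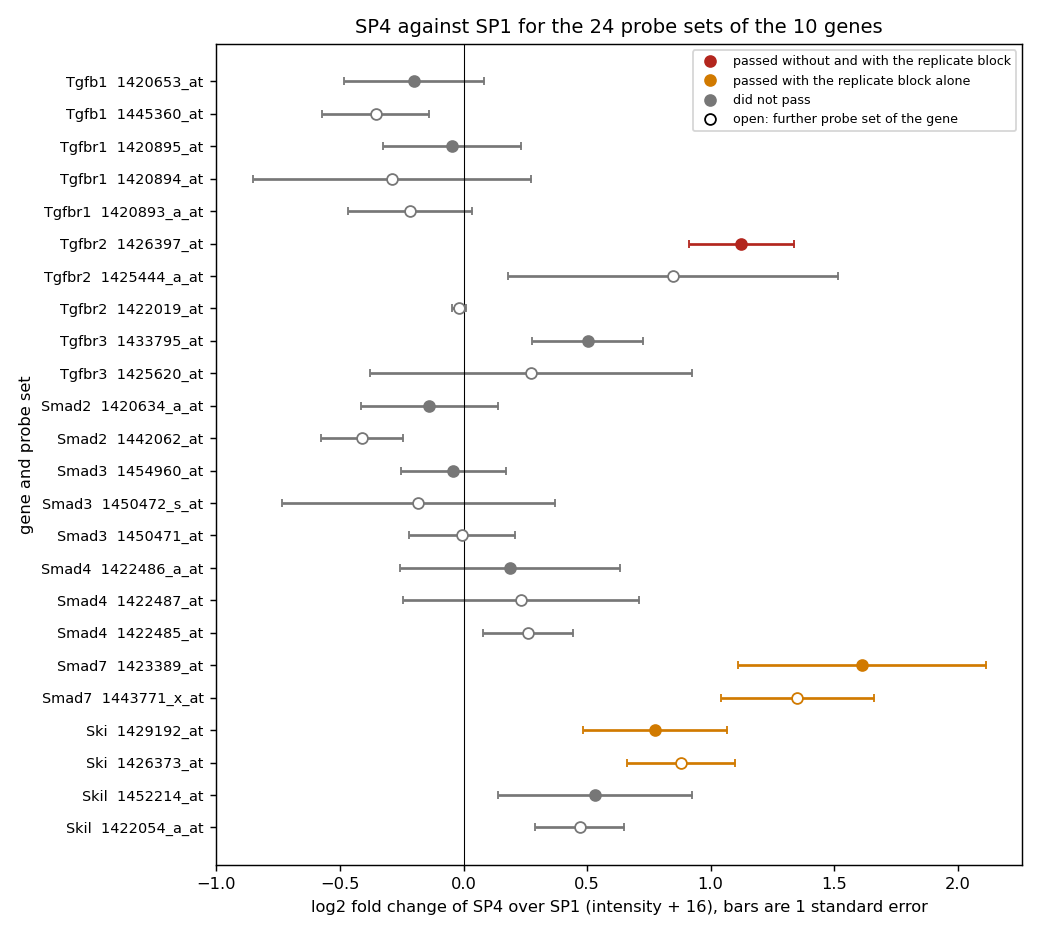
Log2 fold change of SP4 over SP1 (x axis, on intensity + 16) for each of the 24 probe sets, grouped by gene (y axis), with bars of 1 standard error from the fit without the replicate block. Filled points are the probe sets by which a gene was read, and colours give the calls. Tgfbr2 (1.12), Smad7 (1.61) and Ski (0.78) are the genes past the threshold in at least 1 fit.

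Between neighbouring subsets no member passed, and the signs differed between members. Those of 6 genes were up, down and up again, whereas Smad7 and Ski lay above 0 at each step (Smad7 by 0.38, 0.60 and 0.63, Ski by 0.29, 0.08 and 0.40 on the log2 scale). In SP2 against SP1, 8 of the 10 genes lay above 0 (median log2 fold change 0.24), in SP3 against SP2, 7 lay below 0 (median -0.23), and in SP4 against SP3, 9 lay above 0 (median 0.26), where the medians of all genes were 0.01, 0.00 and -0.02. Adjacent steps share a subset, so their signs are not independent. In these 3 comparisons 0 of the 10 genes were called by limma, with or without the block, and 2, 1 and 1 had an unadjusted p under 0.05. Among all genes, 0% rose or fell in SP2 against SP1 and in SP3 against SP2, and 0.214% rose and 0.011% fell in SP4 against SP3, without the block. With it, 0.0055% rose and 0% fell in SP2 against SP1, 0.11% rose and 0.17% fell in SP3 against SP2, and 1.21% rose and 0.28% fell in SP4 against SP3. Markers of other cells also differed at these steps. Of 11 double positive thymocyte markers, 0 lay above 0 in SP2 against SP1 (median -1.52), 10 in SP3 against SP2 (median 2.26, 2 rose with the block) and 0 in SP4 against SP3 (median -1.35, 1 fell with the block), and their summed intensity was 3806–15759 in SP3 and 2470–3987 in SP2. Of 10 regulatory T cell markers, 9 lay above 0 in SP2 against SP1, 8 below 0 in SP3 against SP2 (2 fell with the block) and 10 above 0 in SP4 against SP3 (2 rose with the block). Without the block 0 of these markers rose or fell. The part of these cells in the steps of the members was not tested.

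The F test over the 4 subsets called 0 of the 10 genes without the block, 0.835% of all genes passing, with 3 members at an unadjusted p under 0.05. With the block it called 4 (Tgfbr2, Tgfbr3, Smad7 and Ski), beside 4.66% of all genes, at adjusted p of 0.0198, 0.0378, 0.000209 and 0.0489. Of these, Smad7 alone held without replicate 1, 2 or 3 (adjusted p = 0.00606, 0.00382 and 0.00662). Tgfbr2 passed without replicate 2 (0.0496) and not without replicate 1 or 3 (0.185 and 0.0929), Tgfbr3 did not pass in any of the 3 (0.295, 0.119 and 0.125), and neither did Ski (0.383, 0.163 and 0.161). In SP4 against SP1, 4 of the 10 genes (the same 4) had every SP4 array above every SP1 array, beside 7.38% of all genes, and 0 had every SP4 array below, beside 6.89%.

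Probe sets of 1 gene disagreed on where replicate 3 stood. The probe sets 1420894_at of Tgfbr1, 1425444_a_at of Tgfbr2, 1425620_at of Tgfbr3 and 1450472_s_at of Smad3 were lower on replicate 3 by a log2 difference of -1.36, -1.52, -1.57 and -1.33 from the mean of replicates 1 and 2 within subsets. The leading probe sets of the same genes differed by 0.55, 0.19, -0.11 and 0.29. For Smad2 the leading probe set (1420634_a_at) was itself lower on replicate 3 (-0.58), and the further one was not (0.21). For Smad4 and Skil the leading probe sets were higher on replicate 3 (by 1.02 and 0.90), and the third of Smad4 and second of Skil were not (-0.17 and -0.13). In all, 3 of the 24 probe sets (12.5%) had all 4 arrays of replicate 3 above the other 8, and 5 (20.8%) had all 4 below, beside 10.9% and 10.4% of all probe sets. Averaged over all of its probe sets, Tgfbr2 had a log2 fold change of 0.65 in SP4 against SP1 (limma adjusted p = 0.295), and the call was lost.

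**Figure D3:**
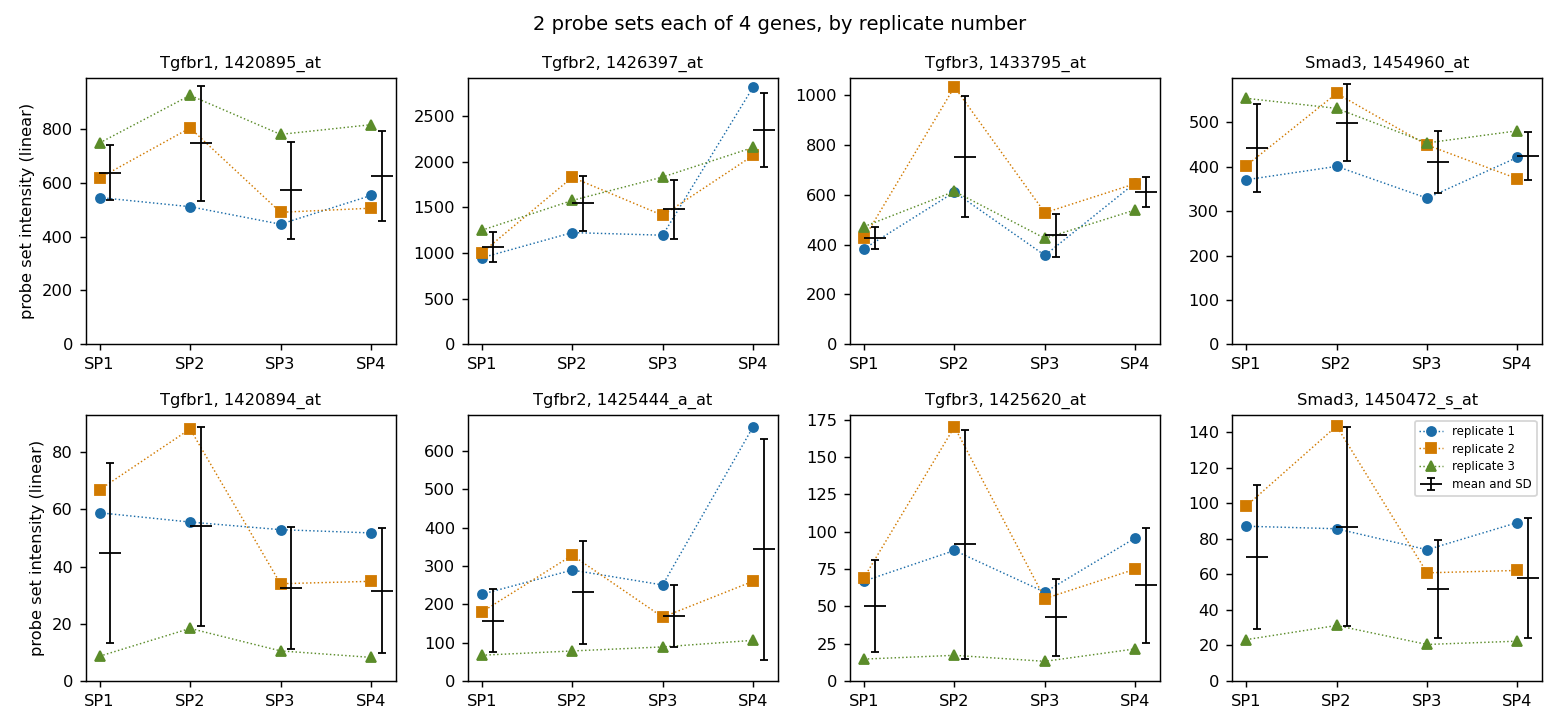
Linear intensity (y axes) in SP1, SP2, SP3 and SP4 (x axes) for the leading probe set (top) and a further probe set (bottom) of Tgfbr1, Tgfbr2, Tgfbr3 and Smad3. Points are arrays, joined by replicate number, and black bars are the mean and SD of 3 arrays. On the bottom row the 4 arrays of replicate 3 lie below all 8 others, which they do on no panel of the top row.

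The genes most alike in profile were sought for each member called in a comparison between subsets, not by the F test alone. They were found among 7183 genes with a mean of 100 or more. Profiles were the log2 values of 12 arrays, which share subsets and replicate numbers. For Tgfbr2 the genes most alike were Adcy7 (Pearson r = 0.98, Spearman rho = 0.97), Ctse (0.98 and 0.94) and Atp11b (0.96 and 0.96). For Smad7 they were Foxo1 (0.97 and 0.98), Gramd3 (0.97 and 0.93) and Il6ra (0.96 and 0.95), of which Foxo1 encodes a transcription factor of naive T cell genes and Il6ra a subunit of the IL-6 receptor. For Ski they were Sft2d2 (0.98 and 0.92), Sorl1 (0.97 and 0.96) and Mxd1 (0.97 and 0.97). Between members the highest Pearson r was that of Smad7 and Ski (r = 0.90, rho = 0.94), and the lowest that of Smad2 and Smad4 (r = -0.94). This ranking depended on the replicate numbers. After their means were subtracted, Tgfbr3 and Skil had the highest r (0.91), and Smad7 and Ski had 0.87. The lowest was then that of Tgfbr1 and Smad4 (-0.86), and Smad2 and Smad4 had -0.71.

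Of the other genes of the pathway, 80 of 83 on 7 lists were measured, and 3 rose in SP4 against SP1, 0 fell and 77 did not pass. With the block 5 rose and 3 fell. As shares of the 80, 3.75% rose without the block, beside 1.22% of all genes, and 6.25% rose and 3.75% fell with it, beside 4.16% and 1.9%, so the counts are given as a description and nothing is read from them about the lists. The median log2 fold change of the 80 was 0.06. The regulators of receptors and SMADs (20 genes) and the target genes (14 measured) held the genes that rose without the block.

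Among the regulators, Smurf2, a ubiquitin ligase that SMAD7 brings to the receptor for degradation, rose. It was 752–802 in SP4 and 277–313 in SP1, a log2 fold change of 1.33 (SE 0.18, limma adjusted p = 0.00463), and both of its further probe sets rose as well (1.30 and 1.04). Bambi, a decoy receptor that lacks a kinase, and Fkbp1a, the FKBP12 protein that holds TGFBR1 inactive, fell with the block alone. Bambi was 55.1–253 in SP4 and 161–585 in SP1 (log2 fold change -1.15, adjusted p = 0.824, and 0.000334 with the block), and Fkbp1a was 920.4–1203 in SP4 and 1923–2172 in SP1 (-0.97, adjusted p = 0.0642, and 0.00264 with the block). Of the regulators 16 lay above 0 and 4 below.

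Among the targets, Itgae, the integrin subunit CD103, and Foxp3, the transcription factor of regulatory T cells, rose. Itgae was 458–496 in SP4 and 23.3–130.3 in SP1 (log2 fold change 2.52, SE 0.43, limma adjusted p = 0.0162). Foxp3 was 65.3–136 in SP4 and 13.0–24.8 in SP1 (1.48, SE 0.29, adjusted p = 0.0361), and it stands on the list of regulatory T cell markers too. Myc rose with the block alone (0.81, adjusted p = 0.938, and 0.0122 with the block), and Id1, an inhibitor of helix-loop-helix factors, fell with the block alone (-1.02, adjusted p = 0.0917, and 0.00345 with the block). The abundant targets Id2 and Junb did not pass (0.13 and -0.47).

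On the other lists, Itgb8, an integrin subunit that activates latent TGF-β, was called with the block alone (0.28, adjusted p = 0.0324) at an intensity of 6.19–14.3 in SP4 and 4.93–5.63 in SP1, close to the smallest values in the table. Of 11 other receptors of the superfamily, 4 other SMADs, 13 nuclear partners and 6 genes of the kinase branch, 0 rose and 0 fell in SP4 against SP1 by either fit. Their more abundant members included the receptor Acvr1b (0.22), Smad1 (-0.22), Smad5 (0.26), the acetyltransferase gene Crebbp (0.30), Hdac1 (0.02), Tab2 (0.10) and Mapk14 (0.16).

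**Figure D4:**
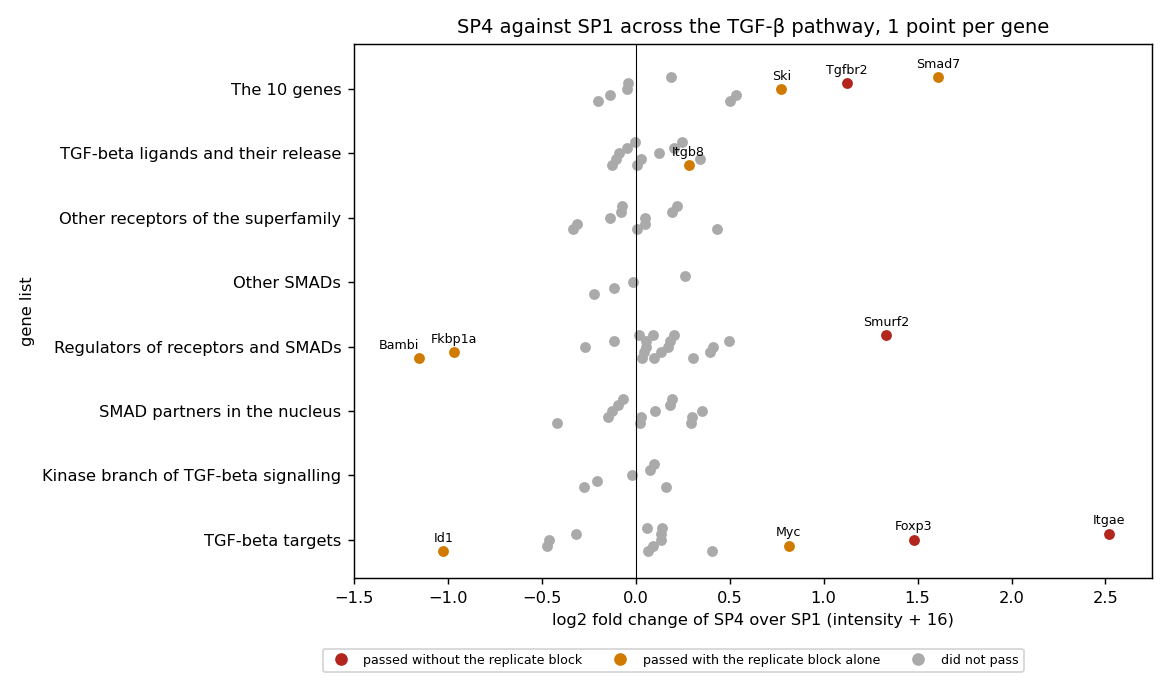
Log2 fold change of SP4 over SP1 (x axis, on intensity + 16), 1 point for each measured gene of the 10 and of 7 further lists of the pathway (y axis). Named points passed in at least 1 fit. Itgae (2.52), Foxp3 (1.48), Smurf2 (1.33) and Tgfbr2 (1.12) passed without the block.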

How the data were processed

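RNA of the 4 sorted subsets was measured on 12 arrays. The values used were those deposited: linear intensity per probe set, background-corrected and normalized between arrays by the authors, with RMA according to the study's methods but MAS5 according to the submitters' notes (versions not given in the sources used here). Array medians were 30.5–32.8 and 75th percentiles 128–142, and the number of arrays limits the precision.

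Values were taken as log2(intensity + 16). All probe sets entered 1 limma fit (version 3.58.1, R 4.3.3) of subset means over the 12 arrays, with 8 residual degrees of freedom, and eBayes with trend tested 6 comparisons and an overall F. P-values were adjusted by Benjamini-Hochberg over all 45037 probe sets, and a gene was called at an adjusted p under 0.05. Each gene was read by its probe set of highest mean, passing over the _x_at kind where possible. Fold changes are on the log2(intensity + 16) scale, which understates low genes. The procedure was tested on simulated data with independent noise on each array. That test held no effect shared by arrays of a replicate number, so it cannot decide between the fits without and with the block.

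The study's methods name an unpaired SAM test, which was not run. Labels give the replicate numbers 1, 2 and 3 in each subset. Deviations from the subset means correlated between 0.28 and 0.92 in the 18 pairs of arrays of the same number, and between -0.85 and 0.78 in the 36 pairs of different number, which overlap that range. As each of the 18 was over 0.1, the numbers were taken to pair the arrays, and a fit with the number as a block (6 residual degrees of freedom) stands beside the other. The study shows its arrays as 3 repeats of all 4 subsets, from independent preparations, but which replicate number is which repeat is not stated in the sources used here. Alternatives were the block, each array left out, replicates 1 and 2 alone, offsets of 1 and 64, a filter on dim probe sets, quantile normalization, no trend, the mean of all probe sets of a gene, the arrays of the 2 subsets alone and, chosen after seeing the data, the block without replicate 1, 2 or 3.

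The members and lists were chosen with earlier results of these data known. The text names all members, and pathway genes called in SP4 against SP1 in either fit with up to 2 abundant others per list. It also names the 3 genes most correlated with each member called in a comparison between subsets. Promoters are from RefSeq (GRCm38.p6). Entries of members were left out in part by chromosome, and 5 of the 10 genes had a window among the rest. A gene not shown may therefore have an entry in the source.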

Additional observations from a re-analysis of the deposited data

How the results depend on the processing

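The block on the replicate number moved the count of members called to 3 in SP4 against SP1 (1 without it), 1 in SP4 against SP2, 1 in SP3 against SP1 and 4 in the F test over the 4 subsets (0 without it), and it changed no other call of a member. With the block and without replicate 1, 2 or 3, the counts were 2, 3 and 3 in SP4 against SP1, 1, 1 and 1 in SP4 against SP2, and 1, 2 and 1 in the F test (Smad7 in each, and Tgfbr2 without replicate 2). On the arrays of replicates 1 and 2 alone, 2 members were called in SP4 against SP1, 1 in SP4 against SP2 and 1 in the F test. The count in SP4 against SP1 was 0 when all probe sets of a gene were averaged and 0 when the arrays of the 2 subsets were fitted alone (Tgfbr2 adjusted p = 0.0903), and it ranged from 0 to 1 when single arrays were left out. In the last, fewer arrays are left to estimate the spread.

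The sign of small, uncalled differences in SP4 against SP1 was not stable. With single arrays left out, the log2 fold change ranged from -0.25 to 0.086 for Tgfbr1 (positive at 0.072, 0.024 and 0.086), -0.28 to 0.040 for Smad2, -0.15 to 0.13 for Smad3 (positive at 0.13 and 0.045), and -0.065 to 0.61 for Smad4 (negative at -0.060 and -0.065). It was 0.036 for Smad3 on replicates 1 and 2 alone, with or without the block, and 0.071 for Tgfbr1 with the block and without replicate 2. For Tgfbr2, Tgfbr3, Smad7, Ski and Skil it stayed above 0 and for Tgfb1 below 0 in all 24 settings. With 3 arrays per subset, intervals of the uncalled members reach log2 differences of 0.4 or more. Probe sets near the smallest values in the table, such as the third of Tgfbr2 and that of Itgb8, carry little information.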
